A study of Rattus norvegicus with 15 samples.

Results

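The 10 Wnt ligand genes Wnt3, Wnt4, Wnt5a, Wnt6, Wnt7b, Wnt9a, Wnt10a, Wnt10b, Wnt11 and Wnt16 were followed through 3 stages of the rat molar tooth germ. The genes were chosen by name as the Wnt ligands of interest in the tooth germ, with earlier results of these data known. All 10 have a row among the 14185 genes of the deposited table of salmon counts. RNA was sequenced from 15 single molar germs of wild-type DA/HanRj rat embryos, 5 each at E15 (labelled E15.5, bud stage), E17 (labelled E17.5, cap stage) and E18. No stage carried a treatment or an engineered allele. Each library came from 1 tooth, and E17 replicates 1 and 2 were the left and right molar of 1 embryo, so the 5 E17 teeth are not all from separate embryos. Each stage carries a title code of its own, and the E18 labels name a storage step (RNAlater) that the other labels do not, although the study's methods give it without a stage, so the effects of stage and of preparation cannot be told apart.

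Wnt ligands are secreted, lipid-modified proteins that bind Frizzled receptors on nearby cells. With the coreceptors Lrp5 and Lrp6 they stabilise beta-catenin, which acts with Lef1 and the Tcf factors on target genes, whereas ligands such as Wnt5a and Wnt11 are best known for signalling that does not use beta-catenin. In the developing tooth many Wnt ligands are made by the epithelium, Wnt5a is known from the mesenchyme, and Wnt signalling is needed for the germ to pass the bud stage and for the enamel knot, the signalling centre of the cap.

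Library totals ran from 10993502 to 27571541 counts, with E15 replicate 1 and E18 replicate 1 the deepest. E18 replicate 3 stood apart, its log2 levels correlating across genes at a mean of 0.918 with those of the 4 other E18 teeth, against 0.959 to 0.984 for each of the other 14 libraries within its stage. By chi-square per gene of the raw counts, E15 replicate 3 also stood apart (43.9 to 65.4 against each other E15 tooth, where the other pairs gave 6.90 to 12.1), as did E18 replicate 3 (107 to 156 against 7.77 to 23.0). Without E15 replicate 3, all 5 calls for E17 against E15 and all 6 for E18 against E15 held, and without E18 replicate 3 the latter 6 held and 3 members rather than 1 were called for E18 against E17. A floor of 3 counts corresponded to 0.109 to 0.273 CPM, and the members' raw counts were between 5 and 4580. Dental epithelium was present by its markers, since the 4 epithelial markers used here (Trp63, Cdh3, Perp and Lama3) had a row, and their summed level rose from 2933 to 4690 normalized counts at E15 to 6340 to 7523 at E17 and 7927 to 10700 at E18. The 7 dental mesenchyme markers (Msx1, Pax9, Barx1, Lhx6, Lhx8, Pdgfra and Runx2) summed to 32770 to 36380, 25810 to 27550 and 21600 to 25200 at the same stages, and the 7 enamel knot markers to 419 to 608, 1147 to 1594 and 1716 to 2537. None of these 3 summed levels overlapped between any pair of stages. The enamel knot markers did not all rise. By the edgeR test given below, Shh, Cdkn1a and Slit1 were called higher from E15 to E17, Shh from a mean of 16.4 to 418 normalized counts. Fgf20 and Dkk4 were not called, Fgf9 had a log2 fold change of -0.50 (edgeR, adjusted p = 0.194), and Fgf4 was not tested there. Of the genes that mark other tissues, 3 of 7 bone markers had a row and summed to 41.1 to 166, 122 to 1179 and 579.9 to 1521, and 1 of 6 endothelial markers had one. No identifier was at hand for the muscle, cartilage and glia markers, so these tissues were not analysed here.

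Wnt6 and Wnt10a are direct neighbours on rat chromosome 9, with 0 annotated genes between them, and both rose over the stages. Their RefSeq promoter windows (build GRCr8, 250 bases before to 50 after the annotated start, both on the plus strand, from chr9:83778302-83778601 for Wnt6 and chr9:83798344-83798643 for Wnt10a) are shown because the neighbours both rose, to different extents, and began in windows of different base composition. CG dinucleotides are in capitals.
Wnt6: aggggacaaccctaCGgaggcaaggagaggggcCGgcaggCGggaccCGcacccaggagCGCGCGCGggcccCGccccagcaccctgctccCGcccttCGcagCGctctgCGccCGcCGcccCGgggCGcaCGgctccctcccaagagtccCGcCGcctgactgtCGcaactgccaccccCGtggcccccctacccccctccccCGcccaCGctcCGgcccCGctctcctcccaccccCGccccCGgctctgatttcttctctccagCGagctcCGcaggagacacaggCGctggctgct
Wnt10a: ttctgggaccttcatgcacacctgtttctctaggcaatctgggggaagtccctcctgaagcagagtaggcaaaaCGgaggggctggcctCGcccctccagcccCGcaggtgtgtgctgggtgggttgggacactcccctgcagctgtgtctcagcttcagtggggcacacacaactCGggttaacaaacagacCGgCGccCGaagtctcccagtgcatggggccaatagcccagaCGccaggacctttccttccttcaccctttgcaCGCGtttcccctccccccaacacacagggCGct
The Wnt6 window held 31 CG dinucleotides at 76.3% GC, more CG dinucleotides than 90.7% of the 33469 promoters in the table, whereas the Wnt10a window held 11 at 61.3% GC. The median promoter held 7 CG dinucleotides at 51.7% GC. Windows were found for 8 members, and the entries for Wnt7b and Wnt10b were missing. The GC box GGGCGG, searched on both strands and itself holding a CG dinucleotide, occurred 5 times for Wnt6, 9 times for Wnt4, 6 times for Wnt9a, 2 times for Wnt3 and in none of the other 4 windows, against at least 1 match in 33.1% of all promoters. The Lef/Tcf core CTTTGT occurred 1 time, in the Wnt3 window (18.8% of all promoters), and CTTTGA in none of the 8.

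From E15 to E17, the bud to cap transition, 5 members rose and 0 fell. Wnt10a rose 2.51-fold, Wnt11 1.46-fold, Wnt5a 1.31-fold, Wnt4 1.29-fold and Wnt6 1.27-fold. By the edgeR quasi-likelihood test with Benjamini-Hochberg adjustment over all genes (threshold 0.05), 18.3% of 12627 genes tested passed, 11.3% higher and 7.02% lower at E17. The median log2 fold change of the 10 members was 0.38, and that of all genes tested -0.0087. DESeq2 called 6 members in this comparison, also 0 of them lower, and 6 had an unadjusted p under 0.05 in edgeR. From E17 to E18 the same test passed 2.54% of 12718 genes, 1.91% higher and 0.629% lower, and 1 member, Wnt6, which rose 1.49-fold. DESeq2 called 3 members there, 6 had an unadjusted p under 0.05 in edgeR, and 7 of 10 edgeR fits without 1 tooth called 0. From E15 to E18, 21.0% of 12661 genes passed, 14.2% higher and 6.73% lower, with 6 members higher and 0 lower: Wnt10a, Wnt11, Wnt6, Wnt10b, Wnt5a and Wnt4. DESeq2 again called 6 members, and 7 had an unadjusted p under 0.05. The comparisons share libraries, E17 being in the first and second, and E18 against E15 using samples of both, so their calls are not independent. By their labels (E15.5, E17.5 and E18), the step from E17 to E18 is also much the shorter. The numbers of calls therefore do not compare equal spans of time. In whole germs, fewer cells of a type and less RNA per cell cannot be told apart. Transcript lengths were not at hand, so levels are compared between stages and not between genes.

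**Figure D1:**
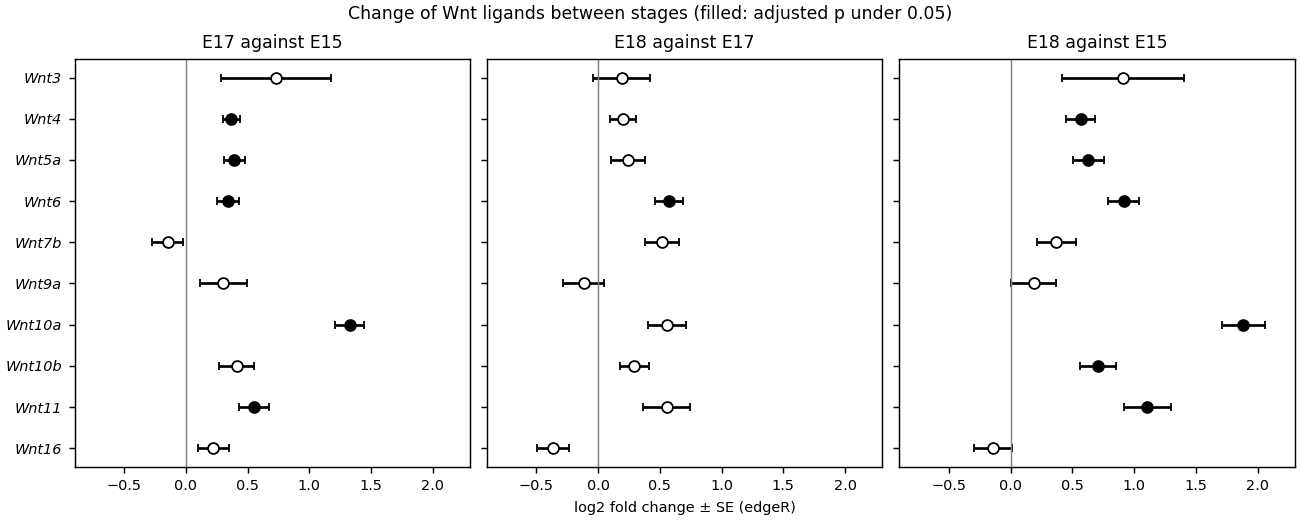
Log2 fold change (x axis) of each of the 10 Wnt ligands (y axis) in the 3 comparisons of stages, from edgeR with 5 teeth per stage, with bars for the SE and filled points for an adjusted p under 0.05. Wnt10a lies farthest to the right at 1.33 for E17 against E15 and 1.88 for E18 against E15, and Wnt6 is the 1 filled point for E18 against E17.

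Wnt10a, a ligand of the dental epithelium and enamel knot whose loss alters tooth number and crown shape, had 132.8, 136.1, 112.8, 98.3 and 124.2 normalized counts in the 5 E15 teeth, 314.7, 303.3, 269.5, 338.3 and 286.1 at E17, and 318.5, 476.9, 576.8, 375.1 and 477.2 at E18. All teeth of E17 and E18 were above every E15 tooth, and E18 replicate 1 was the 1 E18 tooth within the E17 range. The mean was 120.8 ± 15.48 at E15, 302.4 ± 26.4 at E17 and 444.9 ± 100.4 at E18 (SD, n = 5 each). The log2 fold change was 1.33 ± 0.12 (SE, adjusted p = 8.33e-06) for E17 against E15 and 1.88 ± 0.17 (adjusted p = 3.15e-05) for E18 against E15, whereas 0.55 ± 0.15 for E18 against E17 did not pass (adjusted p = 0.093). The last value passed with DESeq2 (adjusted p = 0.0331) and without E18 replicate 1 (0.65, adjusted p = 0.0265).

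**Figure D2:**
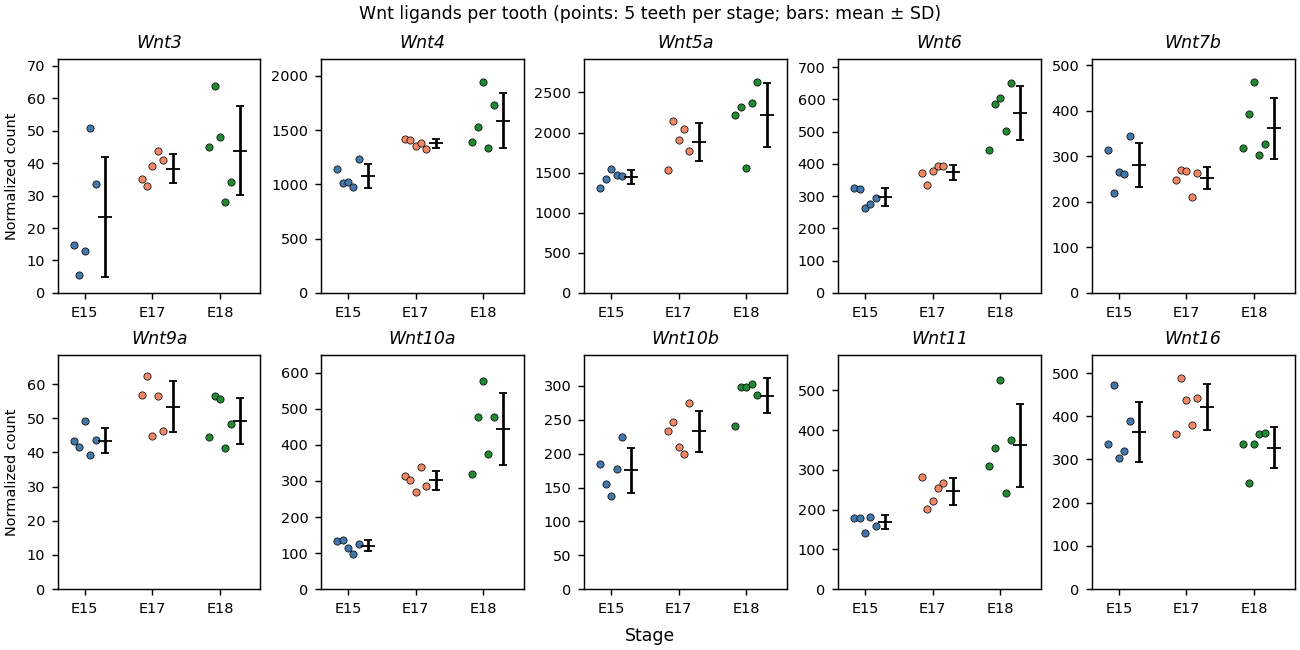
Normalized counts (y axis, a separate scale for each gene, starting at 0) of the 10 Wnt ligands in each tooth at E15, E17 and E18 (x axis), with points for the 5 teeth per stage in replicate order and bars for mean ± SD. Wnt10a lies between 98.3 and 136.1 at E15 and between 269.5 and 338.3 at E17, with no overlap, and Wnt16 stays within 245.2 to 488.9 throughout.

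Wnt10b, the closest relative of Wnt10a and likewise a ligand of the beta-catenin pathway, held 184.3, 154.8, 137.4, 177.0 and 224.8 normalized counts in the E15 teeth, 232.8, 246.7, 209.6, 199.5 and 275.1 at E17, and 241.2, 297.9, 299.0, 302.7 and 287.0 at E18. The E15 and E17 teeth overlapped, and all 5 E18 teeth were above every E15 tooth. Its log2 fold change for E17 against E15, 0.41 ± 0.14, did not pass (adjusted p = 0.059), although it did with DESeq2 and without E15 replicate 5. From E15 to E18 it rose by 0.71 ± 0.14 (adjusted p = 0.00454).

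Wnt6, an epithelial ligand and the chromosomal neighbour of Wnt10a, had 326.3, 321.6, 264.3, 274.3 and 295.3 normalized counts in the E15 teeth, 370.4, 336.1, 376.9, 394.8 and 392.2 at E17, and 444.2, 587.2, 604.7, 500.8 and 652.0 at E18. The 3 stages did not overlap in any pair. The log2 fold changes were 0.34 ± 0.09 (adjusted p = 0.016) for E17 against E15, 0.57 ± 0.11 (adjusted p = 0.0243) for E18 against E17 and 0.92 ± 0.13 (adjusted p = 0.000368) for E18 against E15. The call for E18 against E17 was lost in 7 of 10 fits that each left out 1 tooth, namely without any 1 of the 5 E17 teeth or without E18 replicate 2 or 5, with log2 fold changes of 0.51 to 0.65 over all 10. It was also lost when the left and right tooth of 1 embryo were summed (0.55, adjusted p = 0.0603). Fitting all 15 libraries together lost the E17 against E15 call of Wnt6.

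Because they lie side by side, Wnt10a and Wnt6 were compared within each tooth, as log2 Wnt10a minus log2 Wnt6. The difference was -1.29 ± 0.10 at E15, -0.31 ± 0.15 at E17 and -0.34 ± 0.17 at E18 (SD, n = 5 each). Wnt10a therefore gained 0.98 on Wnt6 from E15 to E17, with no overlap between the stages (two-sided exact permutation test, p = 0.00794, adjusted p = 0.0119 over 9 such tests of neighbouring Wnt genes). From E17 to E18 the difference changed by -0.03 (exact p = 0.762, adjusted p = 0.857), with the stages overlapping.

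Wnt4, an epithelial ligand known from kidney and female reproductive development, had 1144, 1015, 1018, 971.8 and 1230 normalized counts in the E15 teeth, 1417, 1412, 1354, 1384 and 1322 at E17, and 1394, 1530, 1945, 1331 and 1727 at E18. Every E17 and E18 tooth was above every E15 tooth, and E17 and E18 overlapped. The log2 fold change was 0.37 ± 0.07 (adjusted p = 0.0025) for E17 against E15 and 0.57 ± 0.12 (adjusted p = 0.00571) for E18 against E15, and 0.20 ± 0.10 between E18 and E17 did not pass (adjusted p = 0.376).

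Wnt5a, a ligand of the dental mesenchyme that acts through Ror2 and the planar polarity machinery, had 1314, 1420, 1549, 1467 and 1464 normalized counts in the E15 teeth, 1533, 2139, 1913, 2040 and 1767 at E17, and 2214, 2318, 1558, 2374 and 2634 at E18. E17 replicate 1 and E18 replicate 3 were low in their stages, and E17 replicate 1 fell just within the E15 range. Wnt5a rose by 0.39 ± 0.09 on the log2 scale at E17 (adjusted p = 0.00623) and by 0.63 ± 0.12 at E18 against E15 (adjusted p = 0.00396). Between E17 and E18 it differed by 0.24 ± 0.14 (adjusted p = 0.43), and without E18 replicate 3 by 0.34, which passed (adjusted p = 0.0418).

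Wnt11, the other member best known for signalling without beta-catenin, had 179.4, 180.0, 140.9, 182.2 and 159.9 normalized counts in the E15 teeth, 283.0, 201.4, 222.1, 254.0 and 267.3 at E17, and 310.3, 354.3, 525.5, 242.3 and 374.4 at E18. All E17 and E18 teeth were above every E15 tooth, and the E18 teeth spread over a range that took in part of E17. The log2 fold change was 0.55 ± 0.12 (adjusted p = 0.00711) for E17 against E15 and 1.11 ± 0.19 (adjusted p = 0.00168) for E18 against E15, whereas 0.56 ± 0.19 for E18 against E17 did not pass (adjusted p = 0.181). Its call for E17 against E15 was lost when all 15 libraries were fitted together.

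The other 4 members passed in none of the 3 comparisons. Wnt7b, a ligand of the oral epithelium outside the tooth, ranged over 220.6 to 344.5 normalized counts in the E15 teeth, 211.3 to 270.5 at E17 and 303.7 to 463.0 at E18. Every E18 tooth was above every E17 tooth, with a log2 fold change of 0.52 ± 0.13 (adjusted p = 0.0751) that passed with DESeq2 (adjusted p = 0.0225) and without E18 replicate 3 (0.40, adjusted p = 0.0424). Wnt16, known for its part in bone, ranged over 304.2 to 473.1, 358.4 to 488.9 and 245.2 to 360.2, and was the member with the lowest log2 fold change for E18 against E17 (-0.36 ± 0.13, adjusted p = 0.198).

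Wnt9a, known from joint formation, ranged over 39.3 to 49.3 normalized counts in the E15 teeth, 44.9 to 62.2 at E17 and 41.2 to 56.4 at E18, with overlap in every pair of stages. Wnt3, a ligand of the early oral epithelium and the enamel knot, had 14.6, 5.49, 12.9, 50.7 and 33.6 at E15, 35.0, 32.8, 39.1, 43.8 and 40.9 at E17, and 45.0, 63.8, 48.0, 28.2 and 34.3 at E18. Its 3 lowest teeth were all at E15, but the other 2 E15 teeth lay within the later ranges, and the log2 fold change of 0.73 ± 0.45 for E17 against E15 had an adjusted p of 0.288. Its raw counts at E15 were 5 to 49, with a coefficient of variation of 78.5% in normalized counts, and without E15 replicate 4 the log2 fold change was 1.21 (adjusted p = 0.0731).

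The E18 teeth differed among themselves more than those of the other stages for several members. The coefficient of variation was 29.0% for Wnt11 and 22.6% for Wnt10a at E18, against 13.6% and 8.72% at E17 and 10.6% and 12.8% at E15. For Wnt3, Wnt9a, Wnt10b and Wnt16 it was not highest at E18, Wnt10b being at 18.9% at E15 and 8.92% at E18. E18 replicate 3 had the highest level of 4 members, Wnt4, Wnt7b, Wnt10a and Wnt11, and the lowest level of Wnt5a. E18 replicate 4 had the lowest level of 5 members. Wls, the carrier that takes Wnt proteins to the cell surface, was at 637 normalized counts in E18 replicate 3 and at 1787 to 2190 in the other 4 E18 teeth, and whether these patterns are linked was not tested. Of 73 genes in the Wnt and marker lists apart from the members, 5 were below 0.5 times the lowest other E18 tooth in replicate 3 (Wls, Fzd3, Dkk4, Csnk1g1 and Csnk1g3, named after their values were seen), and 0 were above 2 times the highest.

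**Figure D3:**
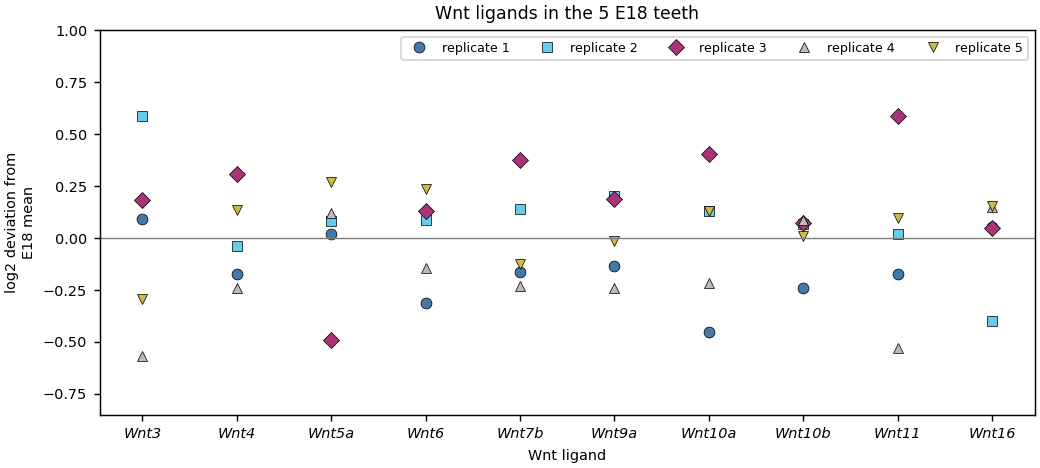
Deviation of each E18 tooth from the mean of the 5 E18 teeth (y axis, log2 of normalized count + 1) for each Wnt ligand (x axis), with 1 symbol per tooth. Replicate 3 is the highest tooth for Wnt4, Wnt7b, Wnt10a and Wnt11 and the lowest for Wnt5a.

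Since the epithelial markers rose with stage, each member was also set against them within each tooth, as log2 of its normalized count + 1 minus the mean of the same value over the 4 epithelial markers. That mean rose by 0.90 from E15 to E17 and by 0.31 from E17 to E18 (exact permutation p = 0.00794 each, the smallest that 5 teeth against 5 allow), and the mesenchyme mean fell by 0.37 and 0.15 (p = 0.00794 and 0.0476). Library scaling cancels almost wholly in such a difference. Of 30 tests, 15 passed after adjustment, 2 higher and 13 lower at the later stage. The marker mean itself rose, so a gene of unchanged level would come out lower against it. The share of all genes passing such tests was not computed.

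Wnt10a gained on the mean of the 4 epithelial markers, which rose unequally. By edgeR, Trp63 rose by 0.51 on the log2 scale from E15 to E17, Cdh3 by 0.59, Perp by 1.17 and Lama3 by 1.28. Wnt10a rose by 1.33 at that step. From E15 to E18 these markers rose by 1.13, 0.67, 1.66 and 1.36, and Wnt10a by 1.88. The gain was thus smaller on Perp and Lama3 than on Trp63. Relative to the mean of the markers, Wnt10a was at -2.92 ± 0.23 at E15, -2.50 ± 0.13 at E17 and -2.28 ± 0.33 at E18 (SD, n = 5 each). It was higher at E17 than at E15 by 0.42, with 4 of 5 E17 teeth above every E15 tooth (exact permutation test, adjusted p = 0.0317), and higher at E18 than at E15 by 0.64, with all 5 teeth above (adjusted p = 0.0265). When 1 of the 10 teeth was left out, the E17 difference stayed at 0.33 to 0.49 and passed only without E15 replicate 2, E15 replicate 3 or E17 replicate 3, in 3 of 10 tests, whereas the E18 difference passed in 10 of 10. Its difference between E17 and E18, 0.22, did not pass (exact p = 0.206). With Trp63 as the 1 epithelial marker, the differences from E15 were 0.80 at E17 (exact permutation test, adjusted p = 0.0397) and 0.72 at E18, which then did not pass (adjusted p = 0.0529), and that between E17 and E18 turned to -0.08.

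Most other members fell behind the epithelial markers from E15 to E17. Wnt7b fell by 1.05, Wnt16 by 0.68, Wnt9a by 0.62, Wnt6 by 0.56, Wnt4 by 0.54 and Wnt5a by 0.53, all passing the exact permutation test after adjustment. All falls given here are relative to the marker mean, which itself rose by 0.90 from E15 to E17. The normalized counts of Wnt4, Wnt5a and Wnt6 had risen at that step. Wnt9a, Wnt16 and Wnt7b had edgeR log2 fold changes of 0.30, 0.22 and -0.15, none of them called. When 1 of the 10 teeth was left out, Wnt4, Wnt7b and Wnt9a passed in 10 of 10 tests, Wnt5a in 3 (without E15 replicate 1 or 3 or E17 replicate 2), Wnt6 in 2 (without E15 replicate 3 or E17 replicate 5) and Wnt16 in 2 (without E15 replicate 3 or E17 replicate 2). With Trp63 alone, Wnt7b was the 1 of these 6 that still passed (-0.67), and the other 5 were at -0.30 to -0.15. From E15 to E18, Wnt16 fell by 1.36, Wnt9a by 1.04, Wnt7b by 0.85, Wnt4 by 0.66 and Wnt5a by 0.61, of which Wnt4 passed in 2 of 10 tests without 1 tooth (E15 replicate 3 or E18 replicate 3) and the other 4 in 10 of 10. With Trp63 alone Wnt5a, Wnt9a and Wnt16 passed, and Wnt7b (-0.77, exact permutation test, adjusted p = 0.0529) and Wnt4 (-0.58, adjusted p = 0.0866) did not. Between E17 and E18, Wnt16 fell by 0.68, which passed with Trp63 alone as well, and Wnt9a by 0.42, which with Trp63 alone was a larger difference that did not pass (-0.72, exact permutation test, adjusted p = 0.0529). Without 1 tooth, Wnt16 passed in 10 of 10 tests and Wnt9a in 2 (without E17 replicate 3 or E18 replicate 3). Wnt6 was higher by 0.26 at E18 than at E17 and did not pass (exact permutation test, adjusted p = 0.0595). Wnt3, Wnt10b and Wnt11 passed in none of their 9 tests.

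**Figure D4:**
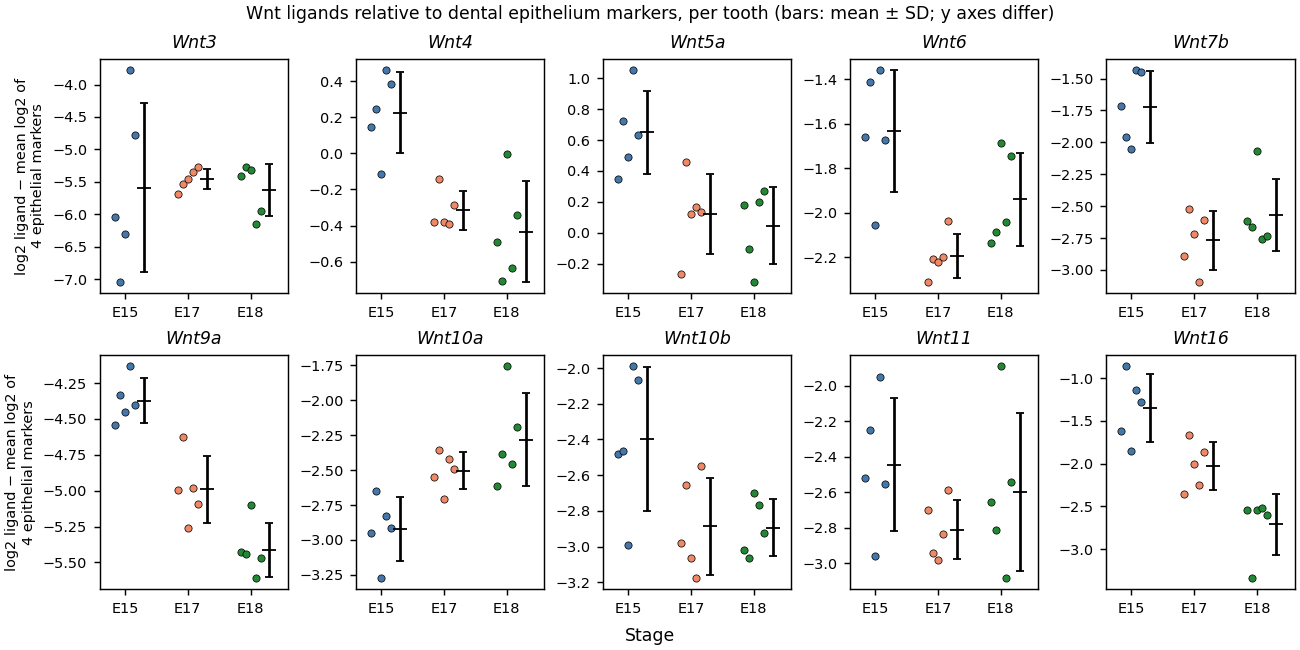
Log2 of each Wnt ligand minus the mean log2 of 4 dental epithelium markers in the same tooth (y axis, a separate range for each gene) at E15, E17 and E18 (x axis), with points for teeth and bars for mean ± SD of 5 teeth. The mean of Wnt10a is higher at E17 and E18 than at E15, while Wnt7b drops by 1.05 from E15 to E17.

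Against the mesenchyme markers, whose mean fell with stage, 24 of 30 exact permutation tests passed and all 24 were higher at the later stage. The 7 markers fell unequally. By edgeR, 4 were called lower from E15 to E17, 0 from E17 to E18 and 4 from E15 to E18 (DESeq2 called 5, 1 and 6). Pax9 was called in none of these edgeR comparisons. Barx1 had log2 fold changes of -0.21, 0.20 and -0.007. The mesenchyme mean fell by 0.37 from E15 to E17 and by 0.52 from E15 to E18. A gene of unchanged level would therefore come out higher against it, and the share of all genes passing was not computed. Wnt10a gained 1.69 on the mesenchyme mean from E15 to E17 and 2.37 from E15 to E18, and Wnt5a 0.75 and 1.12. Wnt7b did not pass from E15 to E17 (0.23), nor Wnt16 from E15 to E18 (0.37). Lower against the epithelial mean and higher against the mesenchyme mean were Wnt4, Wnt5a, Wnt6, Wnt7b, Wnt9a, Wnt10b, Wnt11 and Wnt16. This held from E15 to E17 and from E15 to E18, though not every difference passed. From E17 to E18, Wnt6, Wnt7b, Wnt10a and Wnt11 were higher and Wnt16 lower against both means, again not all passing. Wnt10a was higher at E17 and E18 than at E15 against both means. The part of the tissue makeup in the whole-germ changes was not tested further.

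Of the other 9 Wnt ligands listed, Wnt2, Wnt2b, Wnt3a, Wnt5b, Wnt7a and Wnt9b had a row. From E15 to E17, 2 of these were lower and 0 higher (edgeR, 2 with an unadjusted p under 0.05, and 2 called by DESeq2). From E17 to E18, 1 was lower and 2 higher of 5 tested, Wnt9b not being tested. From E15 to E18 there were 2 each way. Over all genes, 7.02%, 0.629% and 6.73% were lower in these comparisons, and 11.3%, 1.91% and 14.2% higher. Members and lists were chosen with earlier results known, so a contrast between members and other ligands was not tested. Wnt9b, the neighbour of Wnt3 with 0 genes between them, had 20.1, 39.5, 28.2, 33.1 and 43.6 normalized counts in the E15 teeth and 2.13 to 7.65 at E17, from raw counts of 2 to 7. No E17 tooth reached the lowest E15 tooth, and Wnt9b fell by 2.94 on the log2 scale from E15 to E17 (SE 0.40, adjusted p = 0.000232). From E15 to E18 it fell by 3.67 (SE 0.37, adjusted p = 5.40e-05). Within each tooth, log2 Wnt9b minus log2 Wnt3 was 0.78 ± 1.20 at E15 and -3.06 ± 0.68 at E17 (mean ± SD). It fell by 3.84 from E15 to E17 (exact permutation p = 0.00794, adjusted p = 0.0119). From E15 to E18 it fell by 4.49 (exact permutation p = 0.00794, adjusted p = 0.0119). Wnt3 itself was not called in any comparison, and its raw counts at E15 were 5 to 49.

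Wnt2 fell by 0.68 from E15 to E17 (adjusted p = 0.0315) and by 1.70 from E17 to E18 (adjusted p = 0.00397), from a mean of 131.4 ± 26.0 normalized counts at E15 to 81.9 ± 21.1 and 25.2 ± 5.95. From E15 to E18, Wnt2 fell by 2.38 (adjusted p = 3.41e-05), Wnt7a rose by 2.53 (adjusted p = 0.000331) and Wnt3a by 1.32 (adjusted p = 0.00182). Wnt7a rose by 1.78 from E17 to E18 (adjusted p = 0.00144), from 19.7 to 32.04 normalized counts to 62.4 to 92.1, with no overlap. Wnt3a, the neighbour of Wnt9a with 0 genes between them, rose by 1.05 at the same step (adjusted p = 0.0179). Within each tooth Wnt3a gained 1.14 on Wnt9a from E17 to E18 (exact permutation p = 0.00794, adjusted p = 0.0119), and 0.01 from E15 to E17 (p = 0.992).

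**Figure D5:**
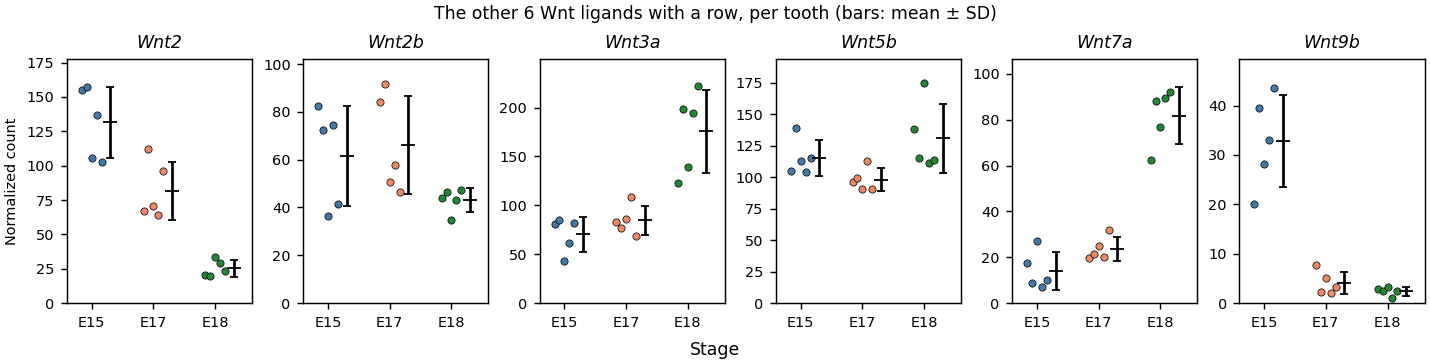
Normalized counts (y axis, a separate scale for each gene, starting at 0) of the 6 other Wnt ligands with a row, in each tooth at E15, E17 and E18 (x axis), with points for teeth and bars for mean ± SD of 5 teeth. Wnt9b drops after E15 and Wnt2 falls at each step, while Wnt3a and Wnt7a are highest at E18.

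Of the secretion genes Porcn, which acylates Wnt proteins, and Wls, 0 of 2 were called in any comparison by edgeR or DESeq2, with 1, 0 and 0 at an unadjusted p under 0.05. Porcn had the lower p, with a log2 fold change of -0.33 ± 0.13 for E17 against E15 (adjusted p = 0.0824). Of 10 receptor genes with a row, Fzd6 was the 1 that rose from E15 to E17 (0.54 ± 0.08, adjusted p = 0.000293). From E17 to E18 0 of 10 receptors were called (edgeR, with 2 at an unadjusted p under 0.05 and 0 by DESeq2), the lowest p being that of the coreceptor Lrp6 (-0.21 ± 0.09, adjusted p = 0.273). From E15 to E18, Fzd6 rose by 0.53 ± 0.10 (adjusted p = 0.00236) and Lrp6 fell by 0.34 on the log2 scale (SE 0.10, adjusted p = 0.0396).

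Secreted and membrane antagonists moved in both directions, 4 of 10 higher and 2 lower from E15 to E17, 0 higher and 2 lower from E17 to E18, and 5 higher and 3 lower from E15 to E18. Sostdc1, an inhibitor of Wnt and BMP signalling made by the dental epithelium, had 1243, 1189, 3362, 1184 and 1456 normalized counts at E15, against 3570 to 5027 at E17, and rose by 1.32 ± 0.26 on the log2 scale (adjusted p = 0.00328), and from E15 to E18 by 1.40 ± 0.33 (adjusted p = 0.0111). E15 replicate 3 was near the E17 teeth, and E18 replicate 3 was at 2320 against 3733 to 5386 in the other E18 teeth. Frzb, a decoy receptor that binds Wnt proteins, fell at each step, by 0.79 (adjusted p = 3.06e-05) and then by 0.66 (adjusted p = 0.0244), and fell by 1.45 from E15 to E18 (adjusted p = 2.73e-05).

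Of 6 feedback and target genes with a row, 2 were higher and 1 lower from E15 to E17, and 3 higher and 1 lower from E15 to E18. Nkd2, an inhibitor induced by the pathway, rose by 0.62 ± 0.07 (adjusted p = 8.76e-05) and 1.06 ± 0.12 (adjusted p = 0.000128). Rnf43, Lef1 and Axin2 are named here after their values were seen. Rnf43 rose by 0.50 from E15 to E17 (SE 0.15, edgeR, adjusted p = 0.0311) and by 0.79 from E15 to E18 (SE 0.17, adjusted p = 0.0071). Lef1 rose by 0.50 from E15 to E18 (SE 0.15, edgeR, adjusted p = 0.0327). Axin2, the 1 target called lower, ranged over 1679 to 2076 normalized counts at E15, against 1264 to 1632 at E17, with no overlap. Axin2 fell by 0.43 on the log2 scale from E15 to E17 (SE 0.08, edgeR, adjusted p = 0.00223). Its fall from E15 to E18 was 0.41 (SE 0.10, edgeR, adjusted p = 0.017). From E17 to E18 0 of the 6 passed (edgeR, with 2 at an unadjusted p under 0.05 and 1 by DESeq2), Nkd2 having the lowest p (0.44 ± 0.12, adjusted p = 0.0922).

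Of 18 transduction genes with a row, 0 were higher and 1 lower from E15 to E17 (edgeR, with 8 at an unadjusted p under 0.05 and 4 by DESeq2), 0 changed from E17 to E18 (2 at an unadjusted p under 0.05 and 0 by DESeq2), and 2 were higher and 2 lower from E15 to E18. Tle1, a corepressor that holds Tcf factors inactive, fell by 0.60 from E15 to E17 (SE 0.08, adjusted p = 0.000163) and by 0.82 from E15 to E18 (SE 0.10, adjusted p = 0.000149). Tle3, a relative of Tle1, had the lowest p from E17 to E18 (0.32 ± 0.11, adjusted p = 0.171). It rose by 0.48 from E15 to E18 (SE 0.12, edgeR, adjusted p = 0.0151).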

How the data were processed

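The authors filtered the reads of 15 single rat molar germs and deposited estimated counts made with salmon, written as whole numbers for 14185 genes under mouse Ensembl identifiers, for 5 teeth at each of 3 stages. The settings of that step are not given in the sources used here. A second deposited table of HTSeq counts (STAR, Rnor_6.0) carries rat identifiers with no symbols and was not used. Symbols came from the study's own gene tables, which pair 399 symbols with mouse identifiers. Orthology and reads shared between related genes could affect single values.

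Pairs of stages were compared with edgeR 4.0.16 (R 4.3.3), using the 10 libraries concerned, TMM scaling, filterByExpr and quasi-likelihood tests, with Benjamini-Hochberg adjustment over all genes and a threshold of 0.05. DESeq2 1.42.0 gave the size factors behind normalized counts and an alternative test. Members relative to marker lists were tested with two-sided exact permutation tests of log2 of the normalized count + 1, adjusted over 30 tests per list. The within-tooth comparison of neighbouring Wnt genes was added after values had been seen. The scripts were tested on simulated data. The epithelial list was cut to 4 genes after the data had been seen, with all values relative to it recomputed. Results on the other genes, among them an alternative on that list for which Trp63 alone stands in, are not reported here. The members, marker lists and pathway lists were chosen with earlier results of these data known.

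All 10 members are named. Of the other Wnt lists, those named in each comparison are the 6 or fewer largest changes over all lists that both passed and reached 2-fold, and in a list with none such the gene of lowest p is named. A gene named in 1 comparison is given in some of the others, not in all, and genes named outside this rule are marked. Replicates were separate teeth, and pairs of libraries within a stage differed by a mean chi-square of 6.21 to 156.0 per gene over 30 pairs, more than counting noise, so none was taken for a repeat. Total counts per library (10993502 to 27571541) set the counting error, which floors and raw counts alone describe. Promoter sequences are from RefSeq, build GRCr8, which is not the authors' build.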

Additional observations from a re-analysis of the deposited data

Results flagged for a closer look

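Among 30 groups of 5 teeth (10 members at 3 stages), 2 held a tooth far from the other 4, where chance alone gives about 1.5 (1 in 20). Wnt10b in E18 replicate 1 was at 241.2 normalized counts, against 287.0 to 302.7 in the other 4 E18 teeth. Wnt16 in E18 replicate 2 was at 245.2 normalized counts, against 334.7 to 360.2 in the other 4. Without the tooth in question neither gene passed for E18 against E17, and Wnt10b still passed for E18 against E15.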

How the results depend on the processing

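Over 17 alternatives for E17 against E15 and for E18 against E17 and 16 for E18 against E15, no log2 fold change of a member changed sign, and 481 of 498 kept their side of the threshold. All 6 calls for E18 against E15 held in all 16. For E17 against E15 the count was 3 with all 15 libraries in 1 fit, against 5. For E18 against E17 the count was 1, and 3 with DESeq2 (Wnt6, Wnt7b and Wnt10a), 0 with E17 replicates 1 and 2 summed, and 0 to 3 when 1 tooth was left out (3 without E18 replicate 3, 2 without E18 replicate 1, and 0 without E18 replicate 2 or 5 or any 1 of the E17 teeth). In the edgeR fits with a count of 0, 5 or 6 members had an unadjusted p under 0.05. Leaving out a tooth also lowers the power of the test.

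Relative to the epithelial markers, 6 of 30 tests passed with Trp63 only, an alternative chosen after seeing the data, against 15. For E18 against E17 that choice turned Wnt6 to -0.0448, Wnt7b to -0.104, Wnt10a to -0.079 and Wnt11 to -0.0887, for E17 against E15 Wnt11 to 0.0147, and for E18 against E15 Wnt3 to 0.0476. A pseudocount of 5 turned Wnt3 to -0.0522 (E17 against E15), and 0.5 turned it to 0.00196 (E18 against E15). Leaving out 1 tooth gave ranges across 0 for Wnt3 (-0.231 to 0.588 for E17 against E15 and -0.395 to 0.424 for E18 against E15), and for Wnt5a (-0.175 to 0.0135) and Wnt10b (-0.0815 to 0.0763) for E18 against E17. None of these results that turned had passed with all 4 markers. With 4 teeth against 5 the smallest exact p is 0.0159, so calls lost there are limited by the design. The cause of these changes was not tested. The alternative on HTSeq counts was not run, since no table here pairs the rat identifiers with symbols. No paired analysis was possible because the teeth of different stages come from different embryos and the replicate numbers only name them.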
